A study of Drosophila melanogaster with 4 samples.

Results

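Of the 41 genes described here, most encode enzymes that digest food in the gut of Drosophila, and 6 encode alpha-mannosidases of the lysosomal class. Their transcripts were read in libraries made from dissected flight muscle of the indirect type (IFM), whose fibrillar fibres drive the wings. The term digestive enzymes is used below for all 41 genes. They were chosen by symbol from the 10626 genes of the table: every gene whose symbol begins with Jon, Mal-A, Mal-B or Amy-, every gene whose symbol ends in Try, the genes LManI to LManVI, and CG12374, CG17192 and mag. The choice was made with the difference between the genotypes already known, and CG12374 and CG17192 were known from it as large falls in the mutant. The genotype differences of these genes are therefore given as a description, and where calls of a fit over all genes are listed for them, they are not evidence of a difference. The control libraries came from the strain w1118. The mutant strain bru1M3 has a CRISPR-made splice-trap cassette with a DsRed marker in bru1 that cuts the transcript short. The gene bru1 encodes an RNA-binding protein of the CELF family that controls splicing in flight muscle. The flies of both genotypes were grown at 27 °C and dissected at 1 d of adult age, and each genotype had 2 replicates, each a pool of animals. The allele is a single engineered line, and no source states how separate the pools of a genotype were, so p-values measure the spread between these pools only.

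Flies secrete digestive enzymes from the enterocytes of the midgut and from the proventriculus, the valve at its front end. The esophagus, the proventriculus and the foremost midgut lie in the thorax between the flight muscles. Serine proteases such as trypsins and Jonah proteins cut dietary protein, carboxypeptidases and aminopeptidases trim the resulting peptides, lipases split fats, amylases cut starch and maltases release glucose. Different stretches of the midgut are known to make different sets of these enzymes, and several of the genes sit in tandem arrays of related copies.

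The values are normalized read counts, in which each gene count was divided by its library's size factor. The reads behind them totalled 30384053 to 34105524 per library, but mitochondrial transcripts made up 72.6% and 63.7% of the total in w1118 and 41.2% and 29.0% in bru1M3, so that 8326712 to 21962285 reads fell on nuclear genes. A value of 3 reads, taken here as the floor of detection, came to 5.11 and 3.29 normalized counts in replicates 1 and 2 of w1118 and to 2.05 and 2.31 in those of bru1M3. Values of the 4 libraries are given below in this order. The targeted gene bru1 read 1807, 1386, 10618 and 9976 normalized counts, and since the cassette shortens the transcript rather than deleting the gene, this total does not check the labels. The 6 flight muscle genes listed to check the tissue summed to between 1417113 and 2266818 normalized counts per library and none was called between genotypes, the flight muscle actin Act88F among them with 548013, 520361, 656410 and 881778. w1118 replicate 1 stood apart in the 7 photoreceptor genes, which summed to 4745, 762, 491 and 837, and what part this had in the enzyme values was not tested.

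The digestive enzymes did not all differ in the same direction between the genotypes. Of the 41 genes, 15 were lower in both bru1M3 libraries than in both w1118 libraries, 17 were higher in both, and in 9 the groups overlapped. Over all 9228 genes tested, the groups did not overlap with bru1M3 below in 31.6% and with bru1M3 above in 32.9%. The counts of the 41 are near these shares, so lying on both sides is not particular to the enzymes. In all, 36 of the 41 had at least 10 normalized counts in at least 2 libraries and entered the fit over all genes (limma on log2(value + 1), Benjamini-Hochberg adjusted p under 0.05). Of these 36, 7 were under 10 in both w1118 libraries and passed only through bru1M3. Jon65Aii, etaTry, LManV and LManVI reached 10 in w1118 replicate 2 but not in replicate 1, and also needed bru1M3 to pass. The fit called 13 lower and 12 higher in bru1M3, and among these 36 the groups did not overlap in 15 with bru1M3 below and 14 with bru1M3 above. Most of the 12 called higher needed bru1M3 to pass the filter, which no gene called lower did, so the 2 counts are not comparable. Of all tested genes, 9.33% were called lower and 12.8% called higher. Since the contrast helped choose the genes, nothing is read from these shares. Scaling to equal totals of nuclear genes lowered the median of all genes by 0.13 on the log2 scale and changed the calls over all genes from 861 lower and 1185 higher to 1135 lower and 945 higher, and quantile normalization gave 1196 lower and 1095 higher. Under each of these 2 scalings 15 of the enzymes were called lower and 12 higher. Without bru1M3 replicate 1 the fit called 10 enzymes lower and 6 higher, and without bru1M3 replicate 2 it called 5 lower and 2 higher.

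As a description, the median absolute log2 difference was 2.60 over the 36 tested enzymes and 0.54 over all tested genes, and 23 enzymes (63.9%) differed by at least 2 on the log2 scale, as did 7.83% of all tested genes. The choice of the genes, and those that needed bru1M3 to pass the filter, fix part of these sizes in advance. The signed median over the enzymes was -0.57 on the log2 scale, and it was the same with the 2 tested genes at 0 in w1118 placed at their lower bounds, but without the filter on low values it was 0.22, so its sign is not settled. In bulk tissue, fewer cells of a type and less RNA per cell cannot be told apart.

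**Figure D1:**
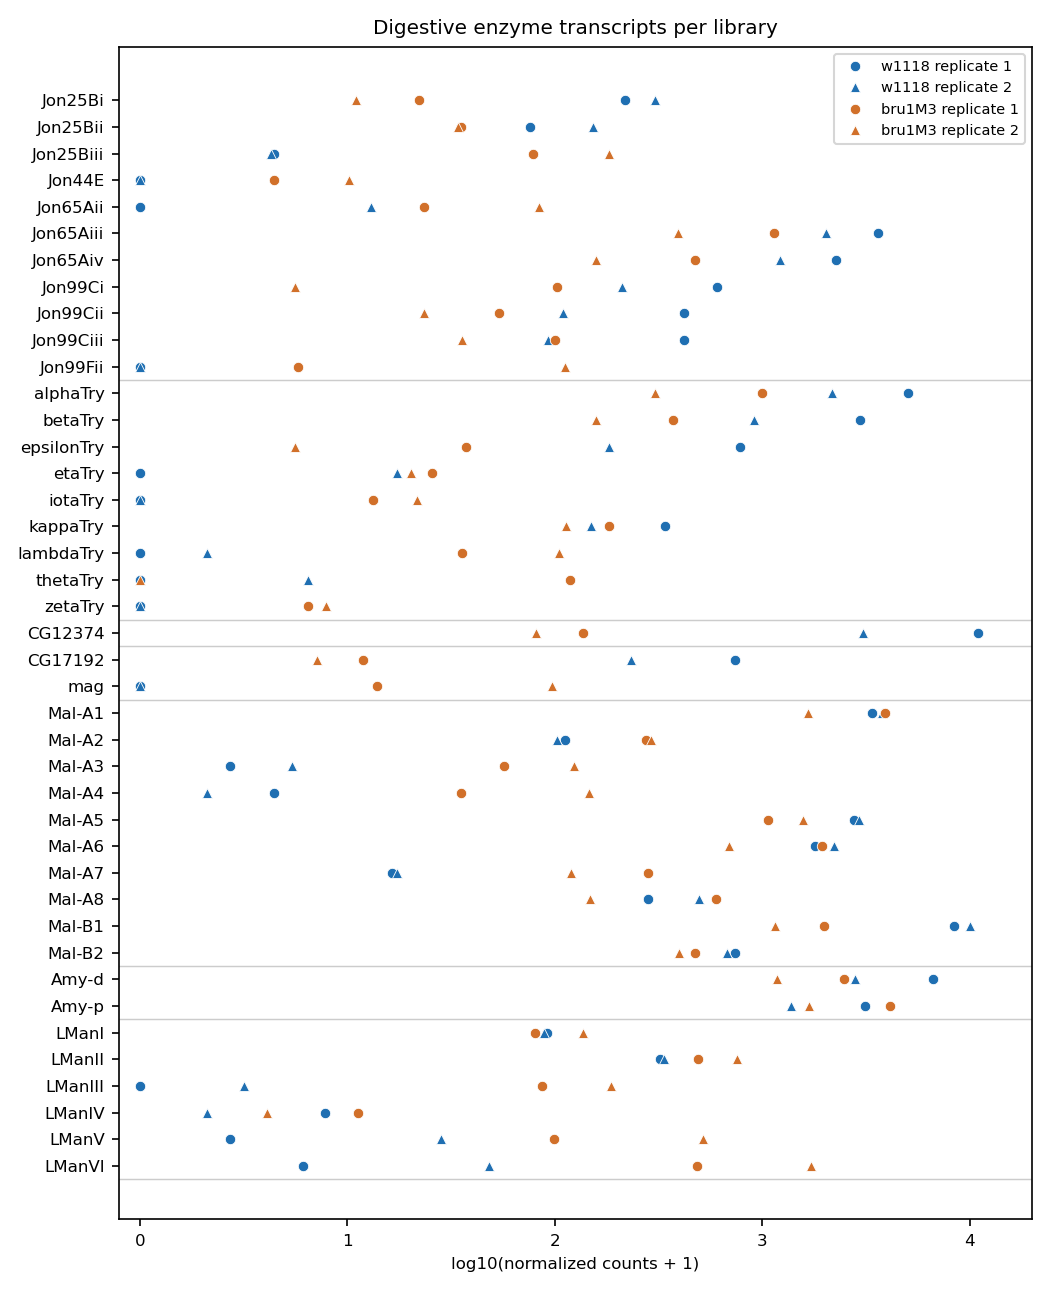
Normalized read counts of the digestive enzyme genes in each library, on a log10(value + 1) axis. Rows are genes grouped by enzyme class, blue marks w1118, orange marks bru1M3, circles are replicate 1 and triangles replicate 2. CG12374 runs from 10902 in w1118 replicate 1 to 80.0 in bru1M3 replicate 2, whereas LManVI runs the other way, from 5.11 to 1706.

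The Jonah genes, 11 chymotrypsin-like serine proteases of the larval and adult gut, included transcripts abundant in the control libraries together with others that were near the floor there. Jon65Aiii had 3627, 2018, 1138 and 393 normalized counts, and Jon65Aiv, its neighbour on chromosome 3L, had 2265, 1220, 475 and 157. Both fell from library to library in the same order, and in both the w1118 values lay above the bru1M3 values, with a log2 difference of -2.01 ± 0.49 (SE) for Jon65Aiii and -2.60 ± 0.51 (SE) for Jon65Aiv. Jon65Aii, the third gene of that group, had 0, 12.1, 22.5 and 83.1 normalized counts, the reverse order.

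Jon25Bi showed the largest log2 difference among the Jonah genes that were lower in bru1M3, with 216, 301, 21.2 and 9.997 normalized counts and a log2 difference of -4.04 ± 0.44 (SE). Its neighbour Jon25Bii had 74.9, 151, 34.1 and 33.1, with a smaller gap between the groups. Jon25Biii, the third neighbour, had 3.40, 3.29, 77.1 and 181, which rested on 2 and 3 reads in w1118 and on 113 and 235 reads in bru1M3. Within these 3 copies, the genotypes separated in every case but not in the same direction.

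The genes of the Jon99C group were all highest in w1118 replicate 1. Jon99Ci had 601, 210, 101 and 4.61 normalized counts, Jon99Cii had 420, 108, 52.5 and 22.3, and Jon99Ciii had 419, 92.0, 98.9 and 34.6. In Jon99Ciii, w1118 replicate 2 lay below bru1M3 replicate 1, so the groups overlapped. Jon99Fii had 0, 0, 4.78 and 112 normalized counts, at least 13.9-fold higher in the bru1M3 mean than the mean of the w1118 floors, and nearly all of it came from bru1M3 replicate 2. It did not enter the fit, and neither did Jon44E, which stayed at or under 9.23 in every library. In all, 5 of the 9 tested Jonah genes were called lower and 1 higher, beside 9.33% and 12.8% of all tested genes. The 1 called higher, Jon25Biii, passed the filter only through bru1M3. For genes chosen with the contrast known, such counts by class are a description only.

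The 9 trypsins showed the same division. The most abundant, alphaTry, had 5053, 2177, 1000 and 305 normalized counts, a log2 difference of -2.58 ± 0.58 (SE). betaTry had 2958, 914, 368 and 156, and epsilonTry had 778, 182, 36.2 and 4.61, the steepest of the trypsins with a log2 difference of -4.71 ± 0.96 (SE). All 3 fell over the libraries in the order in which they are given, without overlap between the genotypes, and the replicates of a genotype differed by over 2-fold in each. kappaTry had 339, 148, 181 and 112, with overlapping groups.

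The other trypsins had at most 16.4 normalized counts in w1118. lambdaTry had 0, 1.10, 34.8 and 104 normalized counts, a rise from 1 read in both w1118 libraries together to 51 and 135 reads in bru1M3. thetaTry had 0, 5.48, 117 and 0, so its 171 reads in bru1M3 replicate 1 had no counterpart in replicate 2. iotaTry, at 0 in both w1118 libraries, was at least 3.94-fold higher in the bru1M3 mean than the mean of the w1118 floors, with 12.3 and 20.8. etaTry had 0, 16.4, 24.6 and 19.2, with w1118 replicate 2 close to the bru1M3 values, and zetaTry stayed at or under 6.92 in every library. The fit called 3 of the 7 tested trypsins lower and 2 higher, beside 9.33% and 12.8% of all tested genes. The 2 called higher, lambdaTry and iotaTry, passed the filter only through bru1M3. Some of these genes have near-identical copies, alphaTry among them, and the counting of reads that match several copies is not given in the sources used here, so the division of reads between such copies is uncertain. The copies gammaTry and deltaTry were not analysed here.

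CG12374, which is annotated as a metallocarboxypeptidase, had the largest log2 difference of all tested enzymes that were lower in bru1M3. It had 10902, 3071, 136 and 80.0 normalized counts, a log2 difference of -5.78 ± 0.55 (SE), and was 64.8-fold higher in the w1118 mean. CG17192, a gene of the lipase family, had 740, 231, 10.9 and 6.15, a log2 difference of -5.49 ± 0.59 (SE). In both genes w1118 replicate 1 was over 3 times replicate 2. mag encodes magro, a gastric lipase homolog secreted by the proventriculus that acts on fats and cholesterol esters in the gut lumen. It had 0, 0, 13.0 and 95.4 normalized counts and was at least 12.9-fold higher in the bru1M3 mean than the mean of the w1118 floors. The 2 lipases thus lay on opposite sides, each without overlap between the genotypes.

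The maltases are alpha-glucosidases that split maltose and sucrose, and unlike the proteases the abundant ones were even between the w1118 replicates. Mal-B1 had 8392, 10010, 1986 and 1154 normalized counts, a log2 difference of -2.60 ± 0.27 (SE). Its neighbour Mal-B2 had 737, 672, 471 and 395, and Mal-A5 had 2781, 2920, 1069 and 1573. These 3 of the 10 tested maltases were called lower, beside 9.33% of all tested genes. Mal-A1 had 3395, 3794, 3920 and 1655, Mal-A6 had 1789, 2209, 1948 and 694, and Mal-A8 had 281, 492, 597 and 146. In each of these 3, bru1M3 replicate 1 was within or above the w1118 values and bru1M3 replicate 2 was the lowest library.

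The remaining maltases were higher in bru1M3. Mal-A2 had 111, 102, 274 and 288 normalized counts, with both genotypes tight, and a log2 difference of 1.40 ± 0.23 (SE). Mal-A7 had 15.3, 16.4, 280 and 118. Mal-A3 had 1.70, 4.38, 56.0 and 123, and Mal-A4 had 3.40, 1.10, 34.1 and 145, values that rested on at most 4 reads per w1118 library. All 4 were called higher, beside 12.8% of all tested genes, but Mal-A3 and Mal-A4 passed the filter only through bru1M3.

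The amylases cut starch and glycogen, and neither of the 2 genes was called. Amy-p had 3138, 1380, 4126 and 1673 normalized counts, with overlapping groups. Amy-d had 6674, 2797, 2473 and 1177, with the w1118 values above the bru1M3 values and a log2 difference of -1.34 ± 0.46 (SE), and it was called lower under equal nuclear totals, quantile normalization and the replicate block and without w1118 replicate 2. In each genotype, replicate 1 had over 2 times the value of replicate 2 for both genes. Amy-p and Amy-d are close copies of each other, so the split of reads between them is uncertain, and summed they gave 9813, 4177, 6599 and 2851.

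The alpha-mannosidases of the lysosomal class remove mannose from glycans, and no gene of this class was lower in bru1M3 without overlap. LManVI had 5.11, 47.1, 485 and 1706 normalized counts, a log2 difference of 5.73 ± 0.96 (SE). LManV had 1.70, 27.4, 97.6 and 517, and LManIII had 0, 2.19, 85.3 and 185. In these 3 genes the libraries stood in the reverse order of the abundant trypsins, with bru1M3 replicate 2 highest. LManII had 320, 333, 488 and 754, a log2 difference of 0.89 ± 0.25 (SE), and LManI had 90.2, 87.6, 79.2 and 135, with overlapping groups. LManIV stayed at or under 10.2 in every library. Of the 5 tested genes, 4 were called higher, beside 12.8% of all tested genes. LManIII, LManV and LManVI needed bru1M3 to pass the filter, so part of this count was fixed in advance. In w1118 replicate 1 they had 0, 1 and 3 reads.

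The summed level of the digestive enzymes was highest in w1118 replicate 1 and lowest in bru1M3 replicate 2. It was 56136, 35757, 22447 and 14391 normalized counts. Within a genotype, replicate 1 was 1.57-fold higher than replicate 2 in w1118 and 1.56-fold higher in bru1M3. The lower w1118 library was 1.59-fold higher than the higher bru1M3 library. The nearest libraries of the genotypes thus lay about as far apart as the replicates of a genotype. That is the smallest distance between the genotypes, and their means lay further apart. As a share of the reads on nuclear genes, the sum was 0.396% (95% Wilson confidence interval 0.392 to 0.400) and 0.263% (0.260 to 0.266) in w1118 and 0.164% (0.163 to 0.166) and 0.0852% (0.0840 to 0.0864) in bru1M3. These intervals cover counting error only. The 15 genes that were lower in bru1M3 held 82.3% and 75.5% of the enzyme reads in w1118 and 41.8% and 38.0% in bru1M3. The 17 that were higher held 0.822%, 1.58%, 8.90% and 31.05%. Both groups were formed from these same values, so the direction of their shares was largely fixed in advance.

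The makeup of the enzyme reads also differed between libraries. Maltases took 31.2%, 56.5%, 47.4% and 43.7% of them, and were the largest class in every library. CG12374 alone took 19.4% (95% Wilson interval 19.0 to 19.9) and 8.59% (8.29 to 8.90) in w1118 but 0.605% (0.527 to 0.695) and 0.556% (0.459 to 0.673) in bru1M3. The trypsins took 16.3% and 9.63% in w1118 and 7.93% and 5.06% in bru1M3, and the Jonah genes 13.6%, 11.5%, 9.04% and 7.22%. The alpha-mannosidases went the other way, from 0.755% and 1.39% in w1118 to 5.55% and 22.9% in bru1M3. The amylases took 17.5%, 11.7%, 29.4% and 19.8%.

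**Figure D2:**
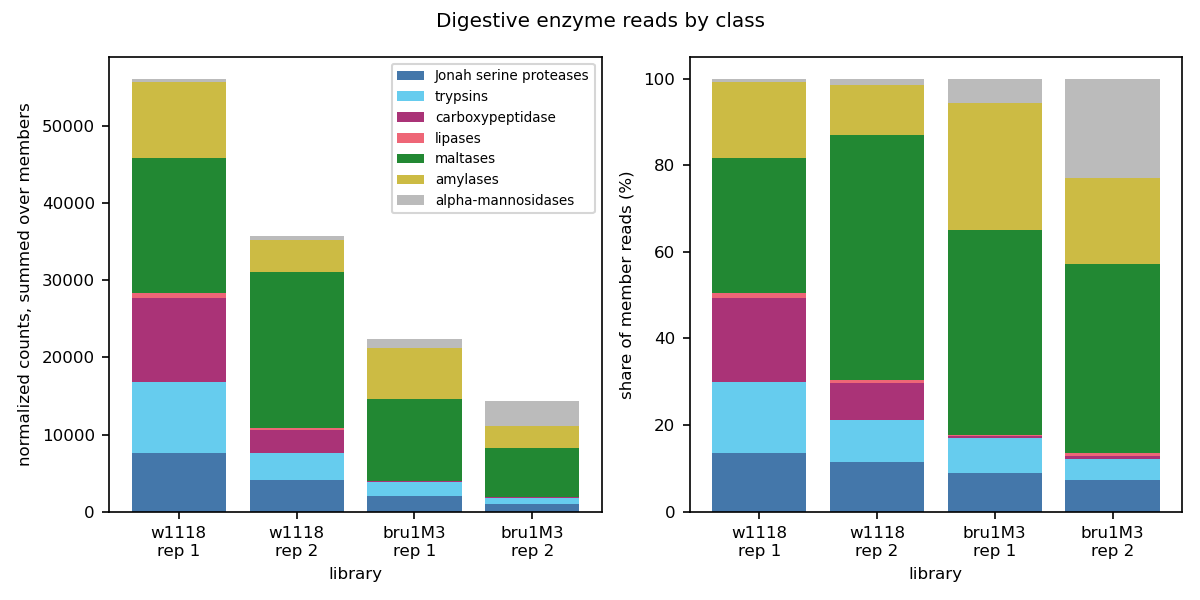
Summed normalized counts of the digestive enzyme genes in each library (left) and the share of enzyme reads that each enzyme class took, in percent (right). The sum falls from 56136 in w1118 replicate 1 to 14391 in bru1M3 replicate 2, while the share of the alpha-mannosidases grows to 22.9% in bru1M3 replicate 2 and that of CG12374 drops under 1% in both bru1M3 libraries.

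Levels of different genes can be compared per kilobase of exon. In w1118 the highest mean levels were 5072 normalized counts per kilobase for Mal-B1, 4772 for CG12374, 4203 for alphaTry, 3225 for Jon65Aiii and 2949 for Amy-d. With w1118 pools that differed by over 2-fold in CG12374, alphaTry and Amy-d, the order of these genes is not resolved. In bru1M3 the highest were 1738 for Amy-p, 1527 for Mal-A1, 1136 for Amy-d, 875 for Jon65Aiii and 866 for Mal-B1, and here too the replicates of Amy-p, Mal-A1, Amy-d and Jon65Aiii differed by over 2-fold, and the order among the amylases rests on an uncertain split of reads. In bru1M3 replicate 2 alone, Mal-A5 came after Amy-p and Mal-A1 with 748 per kilobase, and Jon65Aiii had 449. The level of LManVI in bru1M3 was 347 per kilobase, close to the 349 of Jon65Aiv, against 8.26 and 1928 in w1118.

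Replicates of the same genotype differed far more in these genes than in the transcriptome. Among the 23 enzymes with a w1118 mean of at least 100 normalized counts, 12 (52.2%) differed at least 2-fold between the w1118 replicates, against 213 of 5566 genes (3.83%) at that level. In bru1M3 the figures were 14 of 22 enzymes (63.6%) and 129 of 5563 genes (2.32%). Over all genes, 90% of the replicate ratios lay between -0.66 and 0.65 on the log2 scale in w1118 and between -0.68 and 0.62 in bru1M3. In w1118, 15 of the 23 enzymes were higher in replicate 1, with a median log2 ratio of 0.89. Of all 5566 genes at that level, 3182 were higher in replicate 1, with a median of 0.05.

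Within bru1M3 the sign of the replicate difference went with the sign of the genotype difference. Of the 13 enzymes at this level whose mean was lower in bru1M3, 12 were higher in replicate 1, with a median log2 ratio of 1.23. Of the 9 whose mean was higher in bru1M3, 2 were higher in replicate 1, and the median was -0.77. Of all 5563 genes at that level, 2632 were higher in replicate 1 of bru1M3, a count not split by the genotype difference. Genes read in the same pools, tandem copies among them, are not separate cases. Over all 41 genes, 11 (26.8%) fell strictly from w1118 replicate 1 to w1118 replicate 2, bru1M3 replicate 1 and bru1M3 replicate 2, and 7 (17.1%) rose strictly in that order. Over all tested genes these orders were seen in 7.05% and 6.38%. Replicates carry no order of their own, so this describes the 4 pools only, and with 2 libraries against 2 the smallest p an exact two-sided permutation test could give for a single value is 0.333.

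**Figure D3:**
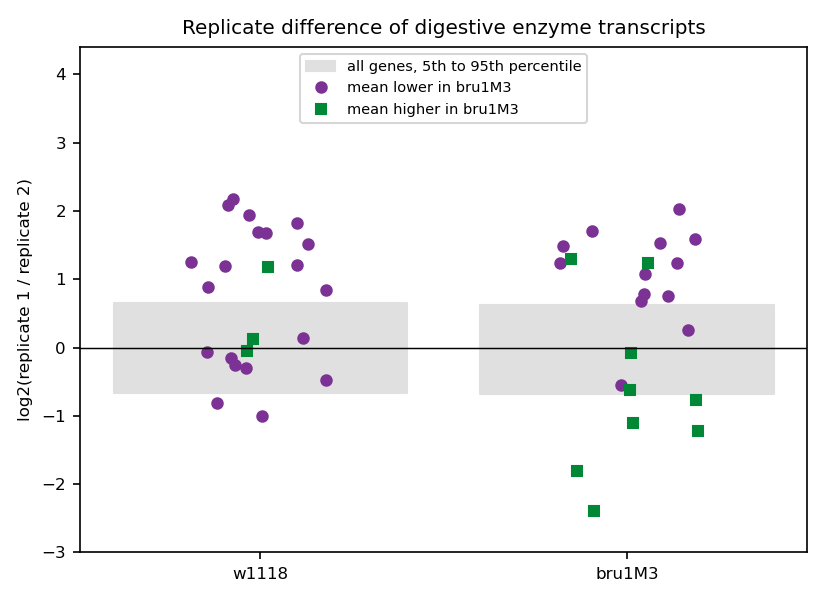
Log2 ratio of replicate 1 over replicate 2 for each digestive enzyme with a genotype mean of at least 100 normalized counts, in w1118 and in bru1M3. Purple circles are genes with a lower mean in bru1M3, green squares those with a higher mean, and the grey band holds 90% of all genes at that level. In bru1M3, 12 of 13 purple circles lie above 0 and 7 of 9 green squares lie below it. Of all 5563 genes at that level in bru1M3, 2632 lie above 0.

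Many of these genes are tandem copies (positions on build BDGP6.54). Of the 27 pairs of genes that follow each other within a group of this set, 10 lay on the same side without overlap and 4 lay on opposite sides. In 13, at least 1 gene of the pair overlapped between the genotypes. Genes outside the set can lie between the members of a pair. For 1 such pair, betaTry ends at 11347395 and iotaTry starts at 11356720. The Mal-A array spans chromosome 2R from 8449664 to 8473961 (24.3 kb), with Mal-A1 to Mal-A8 in order along it. In this array, 1 gene was lower in bru1M3 without overlap (Mal-A5), 4 were higher (Mal-A2, Mal-A3, Mal-A4 and Mal-A7) and 3 overlapped. Mal-A5, with w1118 values of 2781 and 2920, stands next to Mal-A4, with 3.40 and 1.10.

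The trypsin array lies on chromosome 2R from 11336840 to 11357537 (20.7 kb), in the order lambdaTry, kappaTry, zetaTry, etaTry, thetaTry, alphaTry, epsilonTry, betaTry and iotaTry. The 3 genes lower in bru1M3 without overlap, alphaTry, epsilonTry and betaTry, are consecutive. The 4 that were higher without overlap, lambdaTry, zetaTry, etaTry and iotaTry, stand on both sides of them. In the group of Jon25Biii, Jon25Bii and Jon25Bi (chromosome 2L, 4949941 to 4955144), the first was higher and the other two lower, and in the group of Jon65Aiv, Jon65Aiii and Jon65Aii (chromosome 3L, 6039155 to 6053215) the last was higher and the other two lower. The Jon99C genes (chromosome 3R, 29922216 to 29926189) held none that was higher.

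The 4 genes LManIII to LManVI (chromosome 2L, 8765273 to 8781252) held 3 that were higher without overlap and none that was lower. Mal-B1 and Mal-B2, adjacent on chromosome 2L from 11847226 to 11852881, were both lower. The genes in no such group were CG12374 (2R, 12762113 to 12763825), mag (3L, 20460683 to 20462274), CG17192 (3R, 27017180 to 27018287), Jon44E and Jon99Fii. These groups hold only genes of this set. CG17192 lies among lipase genes outside it, such as CG6295 (3R, 27005899 to 27007055) and CG6283 (3R, 27020238 to 27021378).

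**Figure D4:**
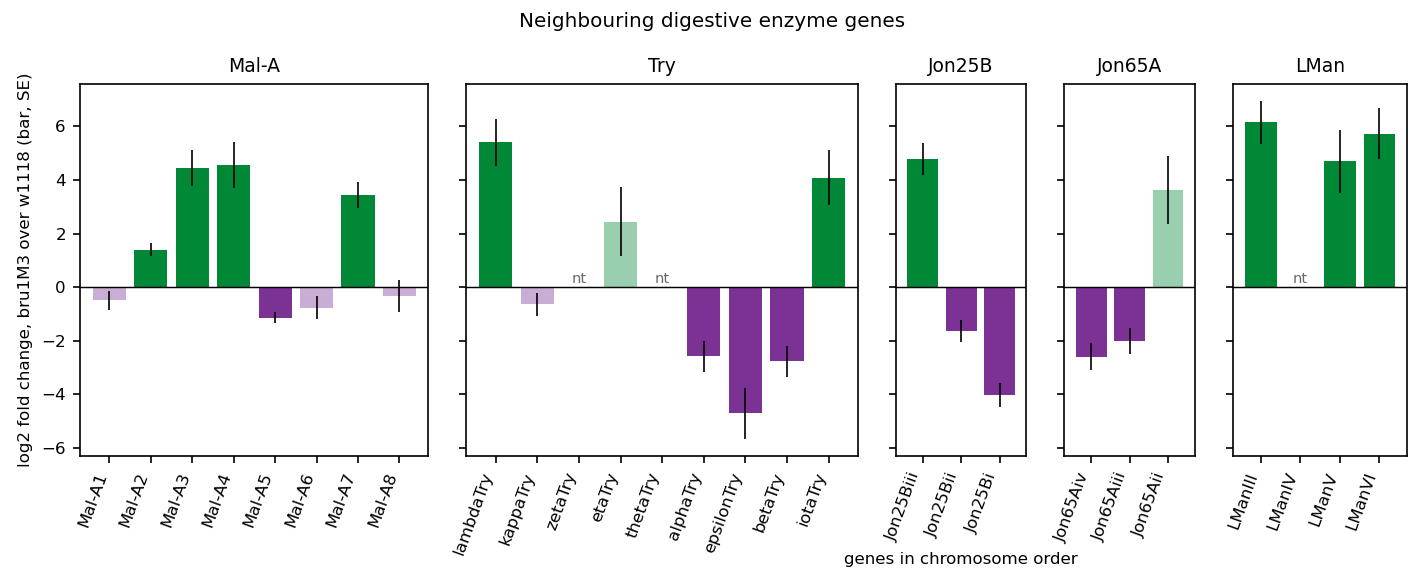
Log2 difference of bru1M3 against w1118 (bars, with SE) for digestive enzyme genes in tandem groups, in their order along the chromosome. Shown are the Mal-A, trypsin, Jon25B, Jon65A and LManIII to LManVI groups. The groups of Jon99C, Mal-B and Amy genes and of LManI and LManII are not shown. Pale bars did not pass an adjusted p of 0.05 in limma and genes marked nt were not tested. In the trypsin array the 3 consecutive genes alphaTry (-2.58), epsilonTry (-4.71) and betaTry (-2.77) point down. At its ends lambdaTry (5.40) and iotaTry (4.09) point up. In w1118 lambdaTry had 1 read and iotaTry had 0, so the heights of these bars depend on the 1 added before the log. The lower bound for iotaTry is 3.94-fold.

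Digestive enzymes that the symbol rule did not take are given for comparison. This list and the lists below were chosen with earlier results of these data known. They are no independent check, and their calls and p-values are given as a description. The list held 116 proteases, peptidases, lipases and glycosidases known or annotated from the gut, of which 69 were in the table and 60 were tested. limma called 7 lower and 13 higher and did not call 40, with a median log2 difference of 0.10. These calls came to 11.7% lower and 21.7% higher, beside 9.33% and 12.8% of all tested genes. In 18 of the 60 (30.0%) the log2 difference was at least 2 in size, against 7.83% of all tested genes. Most of the 13 called higher were under 10 in both w1118 libraries, CG10477, CG8562, CG8093 and Gba1a among them. Those genes passed the filter only through bru1M3, so part of these shares and sizes was fixed in advance. Without bru1M3 replicate 1, the calls dropped to 0 lower and 4 higher, and without bru1M3 replicate 2 to 0 lower and 5 higher.

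Among the lipases, CG6295 fell, with 3119, 775, 112 and 86.1 normalized counts and a log2 difference of -3.97 ± 0.57 (SE, limma adjusted p = 0.0034). CG8093 rose, with 0, 2.19, 66.2 and 238 normalized counts (limma adjusted p = 0.0033), and CG31871 fell, with 172, 168, 57.3 and 77.7. In all, 3 of the 10 tested lipases fell and 1 rose. CG6295 had the same order of libraries as CG12374 and CG17192.

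Of the 11 serine proteases tested, none was called lower and 2 were called higher. CG18180 had 3596, 828, 942 and 56.9 normalized counts, with overlapping groups, and was not called (log2 difference -2.89 ± 1.21, SE). CG10477 had 0, 0, 149 and 82.3 normalized counts and was at least 27.6-fold higher in the bru1M3 mean than the mean of the w1118 floors (limma adjusted p = 0.00079). CG10472 had 8.51, 1.10, 153 and 308 (limma adjusted p = 0.0028). Both are annotated serine proteases. The carboxypeptidases had 1 gene called lower and 4 higher of 14, the latter with w1118 values under 7, CG8562 with 6.81, 0, 85.3 and 86.1 among them, and CG18585 and CG7025 with at most 108 in any library.

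The aminopeptidases had 2 genes called lower and 3 higher of 13. CG46339 rose from 1470 and 1920 to 5563 and 4727 normalized counts, a log2 difference of 1.61 ± 0.19 (SE, limma adjusted p = 0.0016), with replicates closer together than in most of the secreted proteases. CG31198 rose from 897 and 508 to 1253 and 1736 (limma adjusted p = 0.035), and CG4467 fell from 203 and 295 to 88.7 and 113 (limma adjusted p = 0.021). The glycosidases had 1 gene called lower and 3 higher of 12. Gba1a, a glucocerebrosidase that removes glucose from glucosylceramide, had 0, 0, 162.4 and 115.4 normalized counts and was at least 33.1-fold higher (limma adjusted p = 0.00052). The lysozyme LysD rose (17.02, 1.10, 246 and 155, limma adjusted p = 0.010) and the lysozyme LysE fell (233, 105, 63.5 and 23.8, limma adjusted p = 0.044). The lysozyme genes are close copies of each other, so their division of reads is uncertain.

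**Figure D5:**
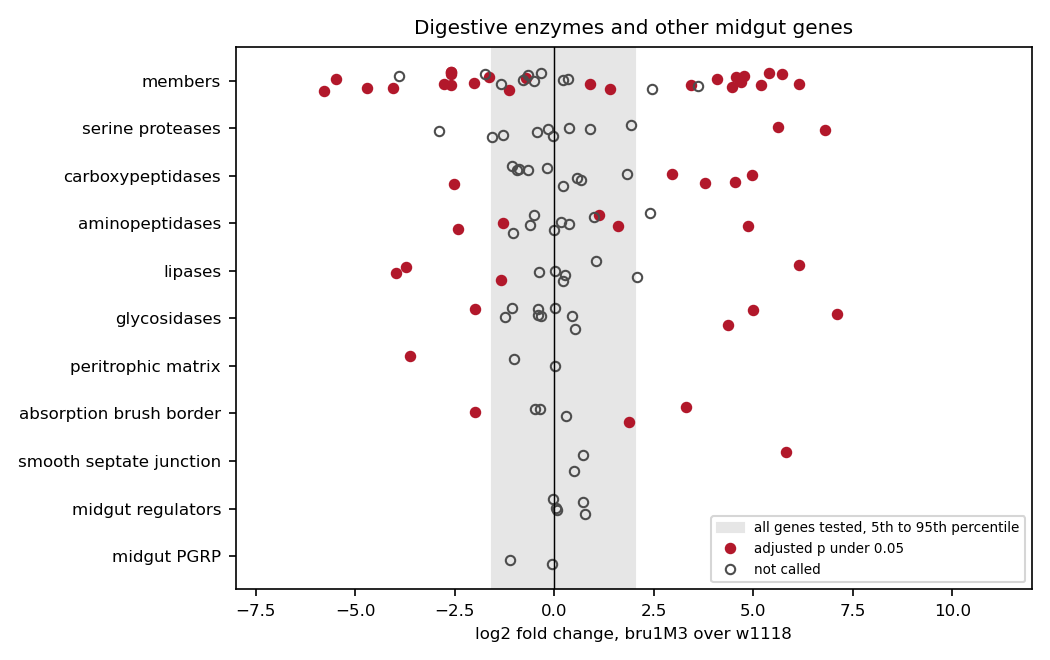
Log2 differences of bru1M3 against w1118 for the digestive enzyme genes of the symbol rule (top row) and for lists of other gut enzymes and midgut genes, 1 point per tested gene. The copper cell list and the marker lists of other cells are not shown. Filled red points passed an adjusted p of 0.05 in limma, open points did not, and the grey band spans the 5th to the 95th percentile of all tested genes, -1.55 to 2.04. The enzymes of the symbol rule reach from CG12374 at -5.78 to LManIII at 6.15, and the other enzymes from CG6295 at -3.97 to Gba1a at 7.11. In w1118 LManIII had 0 and 2 reads and Gba1a had 0, so both upper values depend on the 1 added before the log. The lower bound for Gba1a is 33.1-fold. The midgut genes without enzyme function reach from Peritrophin-15a at -3.63 to Ssk at 5.83, with the 5 tested midgut regulators between -0.03 and 0.76.

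Midgut genes that do not encode digestive enzymes had log2 differences from -3.63 to 5.83. Of 28 listed, 22 were in the table and 20 tested, and limma called 2 lower (10%) and 3 higher (15%), near the 9.33% and 12.8% of all tested genes, with a median log2 difference of 0.05. The 5 tested midgut transcription factors were not called, and their median was 0.06. GATAe, the factor that maintains midgut identity, had 69.8, 77.8, 77.8 and 76.1 normalized counts, exex had 51.1, 63.5, 48.5 and 64.6, and cad, a factor of the posterior gut, had 27.2, 19.7, 21.8 and 26.1. nub had 20.4, 18.6, 42.3 and 25.4, Ptx1 had 18.7, 18.6, 48.5 and 21.5, and lab, a marker of the copper cells, was at 8.51, 3.29, 3.41 and 3.85. mex1, a gene of the enterocyte brush border, had 52.8, 32.9, 33.4 and 30.8 and was not called (log2 difference -0.37 ± 0.44, limma adjusted p = 0.59). Between the highest and the lowest library these 7 genes differed by under 3-fold, at under 100 normalized counts, and some of them are also expressed outside the gut.

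The 5 calls in this list were spread over its groups. Peritrophin-15a, a protein of the peritrophic matrix that lines the gut lumen, fell, with 163, 47.1, 8.19 and 4.61 normalized counts (log2 difference -3.63 ± 0.69, limma adjusted p = 0.011), in the same order of libraries as CG12374. Npc2g, of a family of sterol-binding proteins, fell from 141 and 137 to 44.4 and 26.1 (limma adjusted p = 0.0099), and Npc2d of the same family rose from 1.70 and 1.10 to 16.4 and 31.5 (limma adjusted p = 0.028). Myo31DF, an unconventional myosin of the brush border and other epithelia, rose from 585 and 565 to 1961 and 2292 (limma adjusted p = 0.00047). Ssk, a membrane protein of the smooth septate junctions of the gut, rose from 100 and 222 to 9410 and 7746 (log2 difference 5.83 ± 0.35, limma adjusted p = 0.00013), while its partners mesh and Tsp2A were not called, at 237, 484, 484 and 465 and at 20.4, 71.2, 81.9 and 49.2. Leaving out bru1M3 replicate 1 or bru1M3 replicate 2 left 0 genes of the list called lower and 2 called higher in each case.

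Marker lists of other cells that a dissected thorax can hold are given for comparison. None of the 6 tested photoreceptor genes was called, although their median log2 difference was -3.36, and w1118 replicate 1 lay above w1118 replicate 2 in each, with ninaE at 1256, 80.0, 2.05 and 97.7. Of the 3 intestinal progenitor genes, 2 were tested and none was called. Of 10 enteroendocrine genes, 9 were tested and 1, pros, was called lower, and the list summed to 1297 and 1771 normalized counts in w1118 and 822 and 862 in bru1M3. The 4 Malpighian tubule genes summed to between 479 and 830 per library and the 5 trachea genes to between 2457 and 3710, with none called. Of the visceral muscle genes, bap, bin and HLH54F did not pass the filter, bap and HLH54F being at 0 in at least 1 library, and org-1 had 42.5, 31.8, 30.0 and 20.8. Fat body genes summed to between 1708 and 2379, with Lsp2 called higher and apolpp lower. Of the 7 tested hemocyte genes 3 were called lower, Hml, NimC1 and eater, and of the 6 neuron genes 3, VAChT, nSyb and Syt1. The tubular muscle genes Act79B and TpnC41C were also called lower. Over all tested genes 9.33% were called lower and 12.8% higher, and these lists are too short for a share to be read from them. What part the amounts of these tissues had in the enzyme values was not tested.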

How the data were processed

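The mRNA-Seq libraries came from dissected IFM of w1118 and bru1M3 flies, 2 per genotype. Libraries were stranded, poly-A selected and read in pairs. Per the labels and methods, the authors mapped reads with STAR 2.7.3a to BDGP6, used SAMtools 1.1, counted genes with featureCounts (Subread 2.0.0) and deposited counts divided by a DESeq2 1.32.0 size factor per library, a normalized signal. Whether reads or pairs were counted is not given in the sources used here. The deposited values are whole multiples of what 1 read is worth (100% of values within 0.05 of a whole read, steps of 1.70, 1.10, 0.682 and 0.769), so reads could be recovered. The nuclear depths set the precision, which is lowest in w1118 replicate 1.

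Of 10628 rows, 2 repeated a gene under another identifier and were left out. limma 3.58.1 (R 4.3.3; lmFit, eBayes with trend) was run on log2(value + 1) for the 9228 genes with at least 10 in at least 2 libraries, without a block, with Benjamini-Hochberg adjustment at 0.05. Fold changes on this scale understate those of low genes. Alternatives were pseudocounts of 0.1 and 10, no filter or a minimum of 50, equal nuclear totals, quantile normalization, a replicate block, leaving out each library, and, on recovered reads, edgeR 4.0.16 (quasi-likelihood, 2112 genes called) and DESeq2 1.42.0 (2229 called). Tested on simulated counts of the 9228 genes with 200 changed, limma called 117, 9 of them unchanged, and recovered 32.3% of those changed by 1 and 74.0% of those changed by 2 on the log2 scale.

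The enzymes and the gene lists were chosen with earlier results of these data known. All enzymes with at least 100 normalized counts in any library are given per library, with some lower ones added after their values were seen; from each other list, the called genes with the 3 highest means are named, beside genes described as not called, which were chosen after their values were seen. Gene positions and exon lengths are from Ensembl annotation of BDGP6.54, which held 10597 of the 10626 identifiers; no sequence is shown. Intervals are Wilson intervals at 95% and floors are 3 counts, the mean of both w1118 libraries for folds. The authors also deposited their own test results per gene and per exon bin, with fold changes and p-values, which were not used, nor were 4 columns of values per library there whose names match no label.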

Additional observations from a re-analysis of the deposited data

How the results depend on the processing

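The fit over all genes called 2046 genes, and leaving out each library in turn gave between 601 and 1503, with 601 without bru1M3 replicate 1 and 977 without bru1M3 replicate 2. In these fits the lone library of a genotype is assumed to vary like the other genotype. The enzymes called lower, 13 with all libraries, numbered 5 (without bru1M3 replicate 2) to 14 and those called higher, 12 with all libraries, 2 (without bru1M3 replicate 2) to 13, with 6 higher without bru1M3 replicate 1. Enzymes outside the symbol rule numbered 0 to 6 lower and 4 to 15 higher, and midgut genes without enzyme function 0 to 2 lower and 2 to 4 higher, with 0 lower in both lists whichever bru1M3 library was left out. Of the 30 called genes named from other lists, 23, 22, 6 and 9 kept their call without w1118 replicate 1, w1118 replicate 2, bru1M3 replicate 1 and bru1M3 replicate 2, and 26 to 30 did under the other alternatives where tested. Of the 25 called enzymes, 21, 22, 13 and 7 kept their call without w1118 replicate 1, w1118 replicate 2, bru1M3 replicate 1 and bru1M3 replicate 2. All 25 kept it under both pseudocounts, without a filter, under both scalings and in edgeR, 23 did in DESeq2, and 21 of the 21 tested with a minimum of 50. No called gene named in the text changed direction under any of these alternatives. The median log2 difference of the enzymes was -0.57, but 0.22 without a filter and -0.95 with a minimum of 50, and with bru1M3 replicate 1 or 2 left out it was -0.92 or -0.10, so its sign rests on the filter.

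The replicate numbers mark no stated pairing, and deviations from the genotype means correlated by 0.03 between equal numbers (across 9228 genes, which are not independent). With the replicate block, 2294 genes were called, 1029 lower and 1265 higher, among them 16 enzymes lower and 12 higher, and 24 of the 25 called enzymes kept their call. Depth limits the low genes most, since 3 reads come to 5.11 normalized counts in w1118 replicate 1 and 2.05 in bru1M3 replicate 1.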

Other observations

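Outside the enzymes and the gene lists, the 8 genes whose profile over the 4 libraries lay closest to the median profile of the enzymes with at least 100 normalized counts were CG6503, Myo28B1, CG7791, CG44008, Hsp26, mRpL15, CG8207 and pr, at Euclidean distances of 0.12 to 0.29 on the centred log2(value + 1) scale. The small heat shock gene Hsp26 had 827 and 809 normalized counts in replicates 1 and 2 of w1118 and 606 and 393 in those of bru1M3. Myo28B1, an unconventional myosin, had 196, 193, 144 and 86.9, and CG6503 had 334, 302, 287 and 147. The median profile averages enzymes that were lower with others that were higher in bru1M3, so these genes resemble that middle course and not CG12374 or LManVI. Likeness over 4 libraries is a description only.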
